A study of Mus musculus with 11 samples.

Results

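The genes described here are 10 activity-induced genes that are not transcription factors: Arc, Dusp1, Dusp6, Sik1, Homer1, Bdnf, Nptx2, Ptgs2, Rgs2 and Plk2. They were taken by symbol from a table of 16228 genes, all 10 were present, and all 10 passed the filter on low values that left 14330 genes for testing. The study followed the atypical protein kinase C genes Prkci and Prkcz in the oligodendrocyte lineage. RNA came from cerebral cortex punches of mice at postnatal day 30, with no treatment, and the libraries are described as biological replicates. Among the 4 controls, whose labels name no Cre, the first and second bear the genotype Pkcz f/+ and the others Pkcz f/f. Prkci cKO animals were labelled Ng2 Cre+ Prkci f/f (n = 4), and Prkcz cKO animals Ng2-Cre+ Prkcz f/f (n = 3). Ng2-Cre is driven by regulatory sequence of the gene for the NG2 proteoglycan, which marks oligodendrocyte precursors and is also made by pericytes. Cre, mouse line and the deleted kinase cannot be told apart in these groups.

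When a neuron fires, calcium entry through NMDA receptors and voltage-gated channels activates kinases that phosphorylate transcription factors already bound at rapid-response genes, among them CREB, SRF and MEF2. RNAs of such genes then rise, the fastest within minutes, and many decay quickly. One branch encodes transcription factors such as Fos and Egr1. The other, which holds the genes described here, encodes proteins that act directly at synapses or in signalling. Arc removes AMPA receptors from the synapse, and the short Homer1 product uncouples metabotropic glutamate receptors from their scaffold. BDNF is a secreted neurotrophin, and neuronal pentraxin 2 (Nptx2) is a secreted protein that gathers AMPA receptors. DUSP1 and DUSP6 are phosphatases that switch off MAP kinases, SIK1 and PLK2 are kinases that act as brakes on CREB coactivators and on synaptic strength, RGS2 shortens signalling by Gq-coupled receptors, and PTGS2 (cyclooxygenase-2) makes prostaglandins.

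Promoter sequence is shown for 4 of these genes, chosen with their changes known: Dusp1 and Dusp6 fell in at least 1 knockout, and Plk2 and Homer1 passed in neither. With 4 genes chosen in this way, nothing about a motif's role can be read from them. The windows are the 250 bases before the gene start, 5′ to 3′ on the gene's strand, from RefSeq on GRCm38.p6. RefSeq starts can differ from the GENCODE positions given further on. The Dusp1 and Homer1 windows lie inside the GENCODE spans of these genes. Capitals mark the cAMP response element TGACGTCA, the palindrome that CREB binds, or, in the Homer1 window, its 5-base core TGACG. The windows lie at chr17:26508473-26508722 (minus strand) for Dusp1, chr10:99262981-99263230 (plus strand) for Dusp6, chr13:110394794-110395043 (plus strand) for Plk2 and chr13:93303507-93303756 (plus strand) for Homer1.
Dusp1: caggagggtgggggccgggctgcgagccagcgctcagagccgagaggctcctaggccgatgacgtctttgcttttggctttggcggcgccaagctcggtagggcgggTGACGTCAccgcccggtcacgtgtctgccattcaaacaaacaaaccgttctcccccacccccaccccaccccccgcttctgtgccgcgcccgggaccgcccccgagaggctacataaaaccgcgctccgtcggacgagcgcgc
Dusp6: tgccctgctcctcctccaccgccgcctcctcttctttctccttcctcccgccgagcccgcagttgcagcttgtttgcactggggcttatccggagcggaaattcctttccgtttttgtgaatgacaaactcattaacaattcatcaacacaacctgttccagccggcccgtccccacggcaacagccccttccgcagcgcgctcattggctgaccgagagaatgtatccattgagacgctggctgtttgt
Plk2: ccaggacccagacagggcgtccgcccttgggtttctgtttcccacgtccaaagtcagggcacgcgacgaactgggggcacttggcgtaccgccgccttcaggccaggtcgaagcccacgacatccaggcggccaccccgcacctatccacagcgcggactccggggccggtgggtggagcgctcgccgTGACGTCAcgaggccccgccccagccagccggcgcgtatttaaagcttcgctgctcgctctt
Homer1: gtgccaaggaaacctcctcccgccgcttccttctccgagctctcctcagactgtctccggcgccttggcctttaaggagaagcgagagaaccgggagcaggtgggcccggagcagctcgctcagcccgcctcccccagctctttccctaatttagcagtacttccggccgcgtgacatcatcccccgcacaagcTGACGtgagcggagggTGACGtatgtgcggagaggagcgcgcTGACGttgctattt

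The full element stood at -143 in Dusp1 and at -62 in Plk2, counted from the gene start to the first base of the match. Of 32851 windows of this length in the RefSeq table, 1.55% held it. The core TGACG on either strand (TGACG or CGTCA, which also lies inside every full element) was found at 3 positions in the Homer1 window shown (-56, -40 and -14) and at none in the second Homer1 window. Outside the full elements it also stood at -191 in Dusp1, at -185 and -67 in Rgs2 and at -35 in 1 of the 7 Bdnf windows. It was found in 17.8% of all windows. The Dusp6 and Ptgs2 windows held neither. A CArG box, the SRF site, was found in none of the 14 windows of the 7 members matched, against 1.47% of all windows. Arc, Sik1 and Nptx2 were not matched. These matches describe letters in a short window, and enhancers further away were not examined.

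One library has to be named before the comparisons. Control replicate 2 had the lowest value of the 4 controls for all 10 genes, whereas it was the lowest control for 24.8% of the 14330 genes tested. Control replicate 4 was the highest control for 7 of the 10. How often it was the highest control over all genes was not counted. Control replicate 2 was also the lowest control for 19 of 23 immediate early transcription factors and for all 9 striatal neuron markers, and for 3 of 10 excitatory neuron markers. Each gene's changes against controls are therefore also given without it. As it was the lowest control for all 10 genes, leaving it out must move each of these changes downward. A gene that passes only in that fit therefore has no separate support for a fall. Estimated depths, in reads × 1e6, were 20.6 to 28.2 for 10 libraries (22.5 for control replicate 2) and 14.7 for Prkcz cKO replicate 3. Each targeted gene was lower in its own knockout: Prkci was 65.04 to 68.25 in Prkci cKO against 85.28 to 90.69 in controls, and Prkcz was 262.39 to 292.47 in Prkcz cKO against 297.97 to 347.46. These are sums over whole genes in whole tissue.

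**Figure D1:**
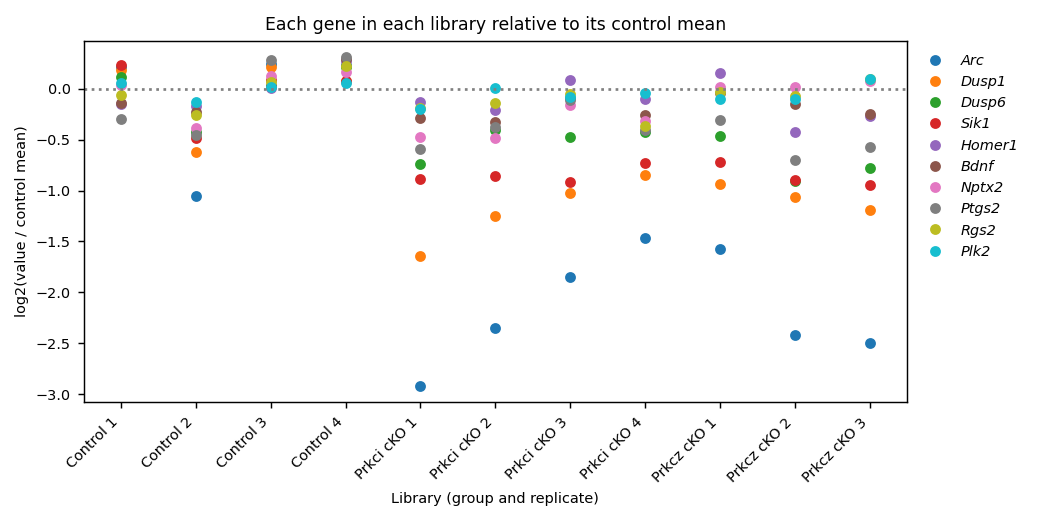
Each gene's value in each library as log2 of its ratio to the control mean (vertical axis), with libraries along the horizontal axis and 1 colour per gene. Each gene's point in control replicate 2 lies below its own points in the other controls, and Arc is lowest of the 10 genes in every knockout library.

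Per kilobase of annotated exon, a scale that allows levels of different genes to be compared, Arc was the most abundant of the 10 in controls at 73.3 (range 35.2 to 86.5), followed by Plk2 at 50.1, Nptx2 at 31.0, Homer1 at 23.8, Dusp6 at 23.0, Rgs2 at 15.5, Dusp1 at 11.4, Bdnf at 6.09, Ptgs2 at 3.13 and Sik1 at 3.07. The ranges over controls of most neighbours in this order overlapped, Arc and Plk2 (45.8 to 52.0) included. Plk2 and Nptx2 (23.7 to 34.7), and Bdnf (5.19 to 7.43) and Ptgs2 (2.29 to 3.88), did not overlap. The length is the union of all annotated exons, which counts long untranslated ends fully, so these levels are approximate. All values below are normalised signal per gene, scaled by library size and not by length. Even the lowest of them, Sik1, stood for about 121 reads in its shallowest measurement.

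Arc, Dusp1 and Sik1 fell in both knockouts, and Dusp6 fell in Prkcz cKO. These were 3 of 10 genes in Prkci cKO, where 1.51% of all genes tested fell, and 4 of 10 in Prkcz cKO, where 0.621% fell (limma, adjusted p below 0.05 over 14330 genes). No member rose. The other 6, Homer1, Bdnf, Nptx2, Ptgs2, Rgs2 and Plk2, passed in neither comparison. Both comparisons use the same 4 controls, so a low or high control moves both. In bulk tissue, fewer cells of a type and less RNA per cell cannot be told apart.

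**Figure D2:**
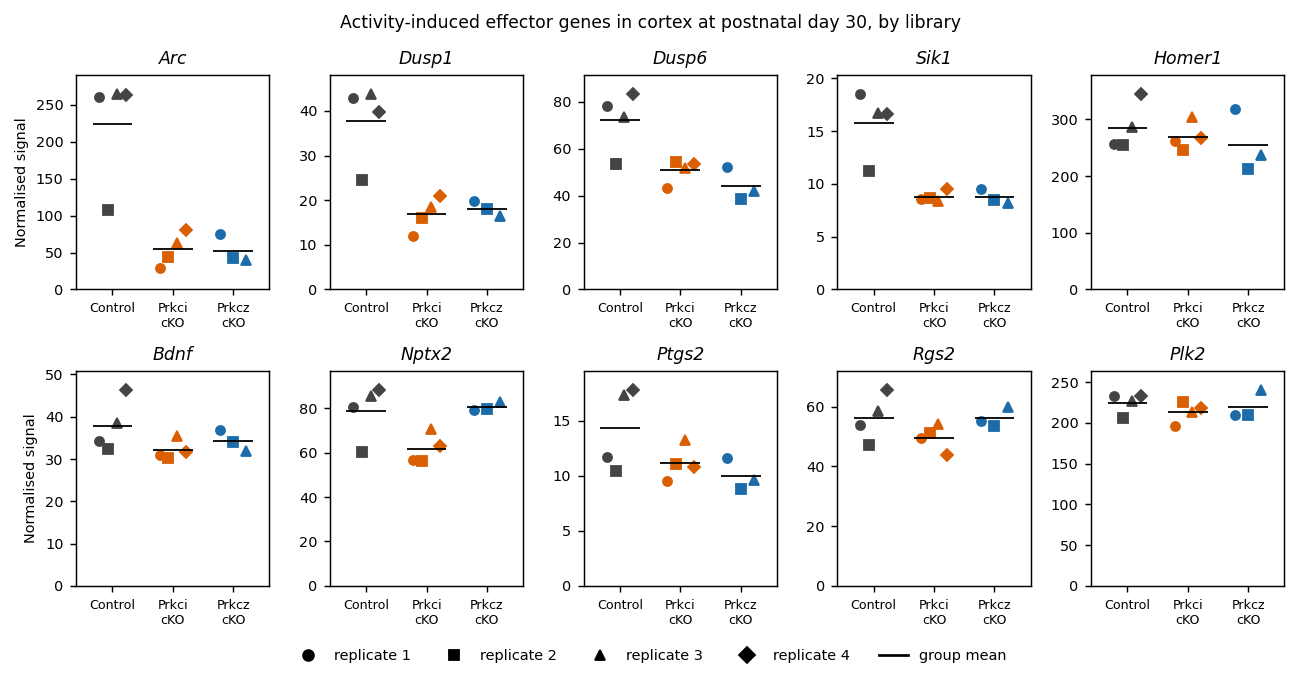
Normalised signal of each gene (vertical axis, from 0) in each library, by group, with marker shape giving the replicate number and a line at the group mean. Arc, Dusp1 and Sik1 have every knockout point below every control, while the groups of Homer1, Bdnf, Ptgs2, Rgs2 and Plk2 overlap.

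Arc (chromosome 15, 74669083 to 74672570, minus strand, GRCm38) encodes the synaptic protein that drives AMPA receptor endocytosis. It was 260.38, 107.62, 264.40 and 263.41 in control replicates 1 to 4. In Prkci cKO it was 29.61, 43.90, 62.36 and 80.99. In Prkcz cKO it was 75.33, 41.93 and 39.69. Control replicate 2 was closer to the highest knockout library than to the next control, and every knockout library was below it. The group means were 224 ± 77.6 (SD, n = 4), 54.2 ± 22.3 (SD, n = 4) and 52.3 ± 20.0 (SD, n = 3). On the log2 scale Arc fell by 2.04 (SE 0.330, adjusted p = 0.00543) in Prkci cKO, the largest fall of the 14330 genes in that fit. In Prkcz cKO it fell by 2.06 (SE 0.356, adjusted p = 0.0231), ranking 2 among the falls. Without control replicate 2 the changes were -2.36 (adjusted p = 0.00229) and -2.38 (adjusted p = 0.00422).

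Dusp1 encodes the nuclear phosphatase that inactivates p38, JNK and ERK, and its RNA is also induced by stress and glucocorticoid. It was 42.97, 24.51, 43.78 and 39.75 in controls. It was 12.06, 15.91, 18.54 and 20.98 in Prkci cKO and 19.72, 18.12 and 16.53 in Prkcz cKO. All 7 knockout libraries lay below the lowest control, again replicate 2. It fell by 1.13 (SE 0.180, adjusted p = 0.00486) in Prkci cKO and by 1.01 (SE 0.194, adjusted p = 0.0353) in Prkcz cKO. The changes were -1.32 (adjusted p = 0.00126) and -1.20 (adjusted p = 0.00422) without control replicate 2. The annotated span of Dusp1 (chromosome 17, 26505590 to 26562128, minus strand, GENCODE M21) overlaps 4 other gene models, Ergic1 on the opposite strand among them, and the strand setting used in counting was not stated in the labels.

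Sik1 (chromosome 17, 31844250 to 31855804, minus strand), a kinase that is induced by CREB and then restrains CREB's coactivators, had narrow knockout groups. It was 18.51, 11.23, 16.69 and 16.58 in controls, 8.53, 8.71, 8.36 and 9.48 in Prkci cKO and 9.56, 8.47 and 8.20 in Prkcz cKO. The knockout libraries spanned 8.20 to 9.56, and all were below control replicate 2. The group SD was 3.14 in controls, 0.494 in Prkci cKO and 0.720 in Prkcz cKO. Sik1 fell by 0.79 in each (SE 0.124, adjusted p = 0.00439 in Prkci cKO; SE 0.134, adjusted p = 0.0215 in Prkcz cKO), and by 0.94 in each without control replicate 2 (adjusted p = 0.000437 and 0.000505). Its relatives Sik2 and Sik3, which are not known as rapid-response genes, had log2 changes of 0.10 and -0.03 in Prkci cKO and of -0.27 and -0.11 in Prkcz cKO, and none of these passed.

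Dusp6 (chromosome 10, 99263231 to 99267489, plus strand), the cytoplasmic phosphatase of ERK and a readout of ERK signalling in many cell types, moved less. It was 78.06, 53.68, 73.34 and 83.31 in controls. In Prkci cKO it was 43.28, 54.38, 51.93 and 53.70, and in Prkcz cKO 52.09, 38.39 and 42.02. The Prkcz cKO libraries were all below the controls, while 2 of the 4 Prkci cKO libraries were level with or just above control replicate 2. It fell by 0.69 in Prkcz cKO (SE 0.138, adjusted p = 0.0379). In Prkci cKO the change was -0.49 (SE 0.127) and did not pass (adjusted p = 0.0805), but without control replicate 2 it was -0.62 and passed (adjusted p = 0.00924), beside -0.83 in Prkcz cKO (adjusted p = 0.00537). The knockouts differed by 0.21 (95% interval -0.09 to 0.50, adjusted p = 0.473), so Dusp6 was not shown to respond differently in them.

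**Figure D3:**
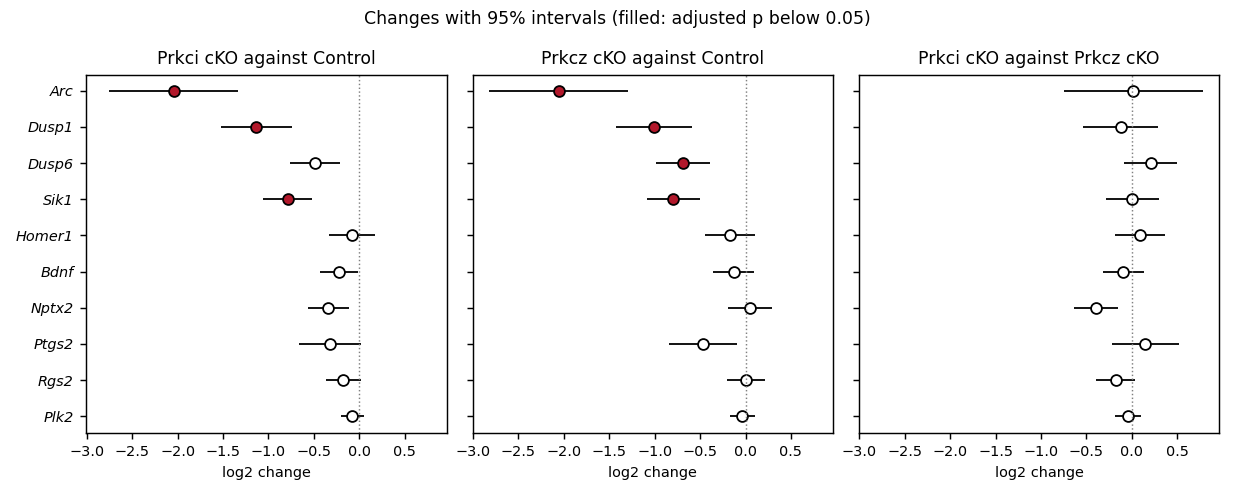
Log2 change of each gene (horizontal axis) with its 95% interval in Prkci cKO against controls, Prkcz cKO against controls and Prkci cKO against Prkcz cKO, with filled points where the adjusted p was below 0.05. Arc, Dusp1 and Sik1 are filled in both comparisons with controls, Dusp6 in the second, and no point is filled between the knockouts.

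Among the secreted members, Nptx2 (chromosome 5, 144545902 to 144557478, plus strand) encodes the pentraxin. It was 80.60, 60.16, 85.49 and 87.99 in controls, 56.48, 56.03, 70.44 and 63.21 in Prkci cKO and 79.34, 79.49 and 82.77 in Prkcz cKO. The 3 Prkcz cKO libraries lay within the control range, and every Prkci cKO library lay below every Prkcz cKO library. The Prkci cKO change of -0.34 (SE 0.105) did not pass (adjusted p = 0.163), and without control replicate 2 it was -0.46 and passed (adjusted p = 0.00791). In Prkcz cKO the change was 0.05 (95% interval -0.19 to 0.29, adjusted p = 0.857), and it turned to -0.07 without that control. The direct difference between the knockouts, -0.39 (SE 0.113, 95% interval -0.63 to -0.15), had an unadjusted p below 0.05 and did not pass after adjustment (adjusted p = 0.162). The other neuronal pentraxins, Nptx1 and the membrane-bound Nptxr, changed by 0.02 and 0.11 in Prkci cKO and by 0.04 and 0.06 in Prkcz cKO, and none passed.

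Bdnf (chromosome 2, 109674700 to 109727007, plus strand), the neurotrophin, was 34.26, 32.28, 38.61 and 46.21 in controls, 31.03, 30.13, 35.46 and 31.62 in Prkci cKO and 36.86, 34.03 and 31.90 in Prkcz cKO. The groups overlapped. The changes of -0.23 (95% interval -0.43 to -0.02, adjusted p = 0.361) and -0.13 (95% interval -0.35 to 0.09, adjusted p = 0.574) did not pass. Nor did they without control replicate 2, at -0.30 (adjusted p = 0.195) and -0.20 (adjusted p = 0.425). Its receptor gene Ntrk2 changed by 0.02 and -0.08, and neither passed. Bdnf is transcribed from several promoters of which a few respond to activity, 7 start windows are listed for it, and the deposited value sums over them. An antisense gene model also overlaps it.

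Homer1 (chromosome 13, 93299635 to 93405129, plus strand) encodes postsynaptic scaffold proteins and, from a truncated transcript, the activity-induced short form. It was 256.28, 254.09, 286.12 and 344.60 in controls, 261.09, 246.25, 303.33 and 266.72 in Prkci cKO and 317.45, 212.81 and 236.45 in Prkcz cKO. The groups overlapped, with 1 Prkci cKO library and 2 of the 3 Prkcz cKO libraries below the lowest control. The changes were -0.08 (95% interval -0.33 to 0.18) and -0.17 (95% interval -0.44 to 0.11), and neither passed. Without control replicate 2 they were -0.13 (adjusted p = 0.751) and -0.22 (adjusted p = 0.52). The table holds 1 value for the gene, so the short induced form and the constitutive forms were not separated. The other Homer genes, Homer2 (0.23 and -0.11) and Homer3 (0.01 and -0.15), did not pass either.

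Ptgs2 (chromosome 1, 150100031 to 150108227, plus strand), the inducible cyclooxygenase, passed only when the f/+ controls were left out. It was 11.68 and 10.48 in the f/+ controls and 17.37 and 17.75 in the f/f controls. In Prkci cKO it was 9.52, 11.06, 13.23 and 10.83, and in Prkcz cKO 11.58, 8.83 and 9.62. The knockout values overlapped the f/+ controls and lay below both f/f controls. Against all controls the changes were -0.32 (SE 0.159, adjusted p = 0.464) and -0.47 (SE 0.172, adjusted p = 0.232). Without control replicate 2 they were -0.45 (adjusted p = 0.221) and -0.60 (adjusted p = 0.162). Against the f/f controls alone they were -0.64 (adjusted p = 0.0411) and -0.79 (adjusted p = 0.0288). That fit leaves out the lower controls, so both changes had to move downward. Passing only there gives no separate support for a fall. The constitutive cyclooxygenase Ptgs1 changed by -0.05 and -0.06 against all controls and did not pass.

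Neither Rgs2 nor Plk2 passed in any comparison or alternative fit. Rgs2 (chromosome 1, 143999338 to 144004161, minus strand), the Gq regulator, was 53.69, 47.01, 58.67 and 65.38 in controls, 49.42, 51.05, 54.07 and 43.63 in Prkci cKO and 55.01, 53.41 and 59.88 in Prkcz cKO. Its changes were -0.17 (95% interval -0.37 to 0.02) and 0.01 (95% interval -0.20 to 0.22), and the second turned negative in 5 of 21 alternative fits. Without control replicate 2 they were -0.26 (adjusted p = 0.197) and -0.08 (adjusted p = 0.745). Plk2 (chromosome 13, 110395046 to 110400844, plus strand), the kinase that weakens synapses after prolonged activity, ranged from 195.80 to 239.91 over all 11 libraries. Its changes were -0.08 (95% interval -0.21 to 0.05) and -0.03 (95% interval -0.17 to 0.11), intervals that allow a fall of at most 0.21. Without control replicate 2 they were -0.12 (adjusted p = 0.474) and -0.08 (adjusted p = 0.64).

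The count of groups that did not overlap named those genes too, but it used the same values and controls and is no separate support. Every Prkci cKO library was below every control for 3 of 10 genes (Arc, Dusp1 and Sik1), against 5.32% of all genes, and every Prkcz cKO library for 4 of 10 (Dusp6 in addition), against 6.72%. The median log2 change of the 10 was -0.33 in Prkci cKO and -0.32 in Prkcz cKO, beside 0.00 and -0.01 over all genes tested. All 10 estimates were below 0 in Prkci cKO and 8 in Prkcz cKO, beside 7039 and 7429 of all 14330 genes.

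Between the knockouts, 0 of 10 genes passed, against 0.300% of all genes in either direction, and Nptx2 alone had an unadjusted p below 0.05 (limma), as had 2290 of the 14330 genes. For Arc the difference was 0.02 with a 95% interval of -0.75 to 0.78, which leaves room for a sizeable difference. The intervals were narrower for Sik1 (-0.28 to 0.29), Dusp1 (-0.54 to 0.29) and Plk2 (-0.18 to 0.10). Of 20 alternative fits, Arc turned sign in 6, Sik1 in 5, Plk2 in 2, and Dusp1 and Homer1 in 1 each, so no direction is given for these genes.

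Without control replicate 2, 5 genes passed in Prkci cKO (Dusp6 and Nptx2 in addition) and 4 in Prkcz cKO. The direction of that shift was fixed, as this library was the lowest control for each gene. Arc, Dusp1 and Sik1 passed in Prkci cKO under all 21 alternatives, with log2 changes from -2.37 to -1.79, -1.32 to -0.98 and -0.94 to -0.71. In Prkcz cKO all 4 kept their direction, but the count of genes that passed fell to 0 without control replicate 1, without Prkcz cKO replicate 2 or without Prkcz cKO replicate 3. It was 1 without control replicate 3, and 2 without control replicate 4 or without Prkci cKO replicate 2.

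**Figure D4:**
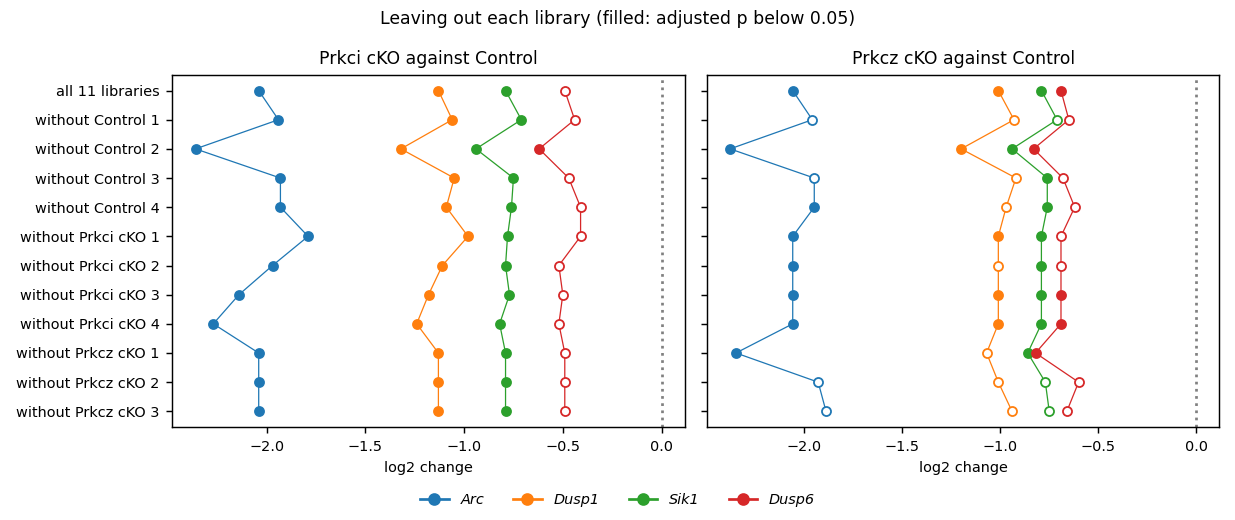
Log2 change (horizontal axis) of Arc, Dusp1, Sik1 and Dusp6 with all 11 libraries and with each library left out in turn (vertical axis), filled where the adjusted p was below 0.05. Every point lies below 0, and in Prkcz cKO against controls none of the 4 genes is filled without control 1, Prkcz cKO 2 or Prkcz cKO 3.

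The 2 control genotypes were compared in a fit with 4 groups. All 10 estimates were below 0 in the f/+ controls, with a median of -0.31, beside 7145 of all 14330 genes and a median of 0.00. Of the 10, 0 passed, against 0.154% of all genes (limma). The unadjusted p was below 0.05 for 4 of the 10: Ptgs2 (-0.64, adjusted p = 0.167), Bdnf (-0.34), Rgs2 (-0.30) and Nptx2 (-0.31). Over all genes 1802 of 14330 had such a p. Arc had a difference of -0.65 with a 95% interval of -1.62 to 0.31. For 4 of the 10 genes, Ptgs2, Bdnf, Rgs2 and Homer1 (-0.30), the difference between the controls was larger than either estimate in the knockouts. Control replicate 2 is 1 of the 2 f/+ libraries. For Arc, Dusp1 and Sik1 the other f/+ library was at 260.38, 42.97 and 18.51, close to or above the f/f libraries, so the low value there was that of 1 library. For Ptgs2, Bdnf, Rgs2, Nptx2 and Homer1 both f/+ libraries were below both f/f libraries. The same held for Arc, though control replicate 1 was only just below them. How often this split occurs over all genes was not counted, so it cannot be read as a trait of these genes.

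The wider activity programme was described with lists of related genes. Of 23 immediate early transcription factors tested, 7 fell in Prkci cKO and 6 in Prkcz cKO, none rose, and the median changes were -0.50 and -0.47. This list also had a median of -0.38 in the f/+ against the f/f controls, with 18 of 23 estimates below 0. Over all genes tested the median was 0.00, with 7145 of 14330 estimates below 0. Of the 23, 0 passed between the controls and 11 had an unadjusted p below 0.05 (limma), beside 1802 of all 14330 genes. Fos fell from 37.6 ± 14.0 (SD, n = 4) to 12.4 ± 1.92 (SD, n = 4) and 8.25 ± 3.84 (SD, n = 3), and Junb by 1.19 and 1.07. Npas4 also fell in both, by 1.09 and 1.64. Klf10 (-0.80) and Csrnp1 (-0.80) passed in Prkci cKO and were -0.46 and -0.50 in Prkcz cKO, where they did not pass. Egr1 (-1.13) passed in Prkcz cKO and was -0.55 in Prkci cKO, where it did not pass. For these 3 genes the difference between the knockouts did not pass (adjusted p = 0.263, 0.368 and 0.232). Of 37 other activity-induced effectors, 4 fell in Prkci cKO and 0 in Prkcz cKO (limma, with 11 at an unadjusted p below 0.05), with medians of -0.15 and -0.13. The 4 were Gadd45b (-0.70), a regulator of DNA demethylation, the small GTPase Arl4d (-0.87), the ADP-ribosyltransferase Tiparp (-0.56) and the matricellular gene Cyr61 (-1.14). In the f/+ against the f/f controls these 37 had a median of -0.16, 13 had an unadjusted p below 0.05, and 1 passed (limma). It was Cyr61 (-1.24, adjusted p = 0.0141), at 4.99 and 4.40 in the f/+ and 12.58 and 10.90 in the f/f controls. Cyr61 was 2.70 to 4.10 in Prkci cKO, so much of its fall depends on which controls are used.

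Genes that act before or beside this response were counted in 3 lists. Over all genes tested, 1730 of 14330 had an unadjusted p below 0.05 in Prkci cKO and 2144 in Prkcz cKO. Of 31 genes for calcium entry, kinases and transcription factors upstream of it, 0 passed in either knockout (limma, with 2 and 1 at an unadjusted p below 0.05), and the medians were 0.05 and -0.02. They include the NMDA receptor subunits, Camk2a, Creb1, Srf and the Mef2 genes. Of 35 partners, receptors and substrates of the 10 proteins, 1 fell in Prkci cKO, the endophilin gene Sh3gl3 (-0.38), whose product binds Arc, and 0 in Prkcz cKO (with 8 at an unadjusted p below 0.05). Of 22 paralogs and family members, 0 passed in Prkci cKO (with 5 at an unadjusted p below 0.05) and 1 in Prkcz cKO, Rgs5 (-0.39), which marks pericytes. The mitotic kinase gene Plk1, a relative of Plk2, had estimates of 0.75 (adjusted p = 0.106) and 0.68 (adjusted p = 0.191) at low levels of 0.31 to 1.69 over all libraries, and did not pass.

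**Figure D5:**
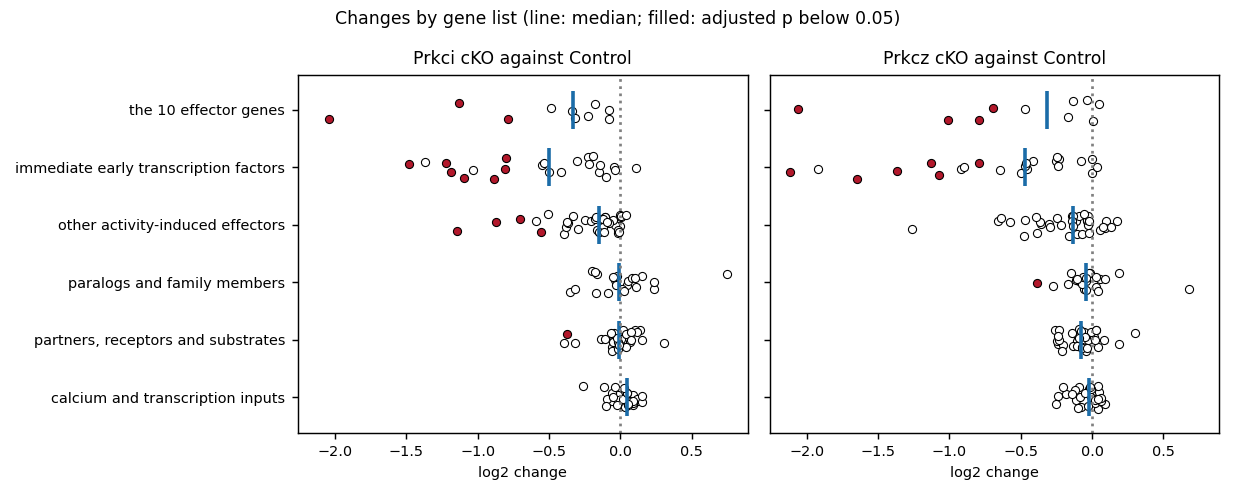
Log2 change of each gene (points, horizontal axis) by gene list (vertical axis) in both knockouts against controls, with a blue line at the list's median and filled points where the adjusted p was below 0.05. The 10 effectors and the immediate early transcription factors have medians between -0.50 and -0.32, and the last 3 lists between -0.08 and 0.05.

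Other cell types and tissue signs were measured beside these changes. Summed excitatory neuron markers were 11010 to 11450 in controls, 11320 to 11630 in Prkci cKO and 11190 to 11450 in Prkcz cKO, and 0 of 10 markers passed in either knockout (limma, with 2 and 0 at an unadjusted p below 0.05). None of 9 inhibitory neuron markers passed (0 and 1 at an unadjusted p below 0.05). Oligodendrocyte markers fell, 8 of 9 in Prkci cKO and 3 of 9 in Prkcz cKO, against 1.51% and 0.621% of all genes. Their sums were 5013 to 7632 in controls, 2626 to 4273 in Prkci cKO and 3587 to 3934 in Prkcz cKO. All 9 of these markers had estimates above 0 in the f/+ against the f/f controls, with a median of 0.38. In Prkcz cKO all 8 endothelial estimates were below 0, and the VEGF receptor genes Flt1 (-0.50) and Kdr (-0.60) fell. For 5 of the 8, every Prkcz cKO library was below every control, against 6.72% of all genes. Summed endothelial markers were 199.4 to 225.5 in controls, 233.8 to 255.3 in Prkci cKO and 168.2 to 175.2 in Prkcz cKO. The astrocyte water channel gene Aqp4 fell in Prkcz cKO (-0.46), as 1 of 8 astrocyte markers. Summed markers of choroid plexus and meninges ran from 129.6 to 992.9 in controls, highest in control replicate 2, and were 493.0 to 762.3 and 641.3 to 1008 in the knockouts. The part of these cell types in the effector changes was not tested.

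Striatum lies beneath the cortex, and its neurons also induce these genes. The summed markers of striatal medium spiny neurons were 731.2 to 1226 in controls, 362.6 to 675.7 in Prkci cKO and 740.7, 761.2 and 1650 in Prkcz cKO. The lowest control was replicate 2, and the other controls were 1007 to 1226. Thus 2 of the 3 Prkcz cKO libraries were close to the lowest control and below the other controls, and 1 was above every control. In Prkci cKO all 9 estimates were below 0 (median -0.92) with an unadjusted p below 0.05, and 0 passed after adjustment (limma). In Prkcz cKO the median was -0.04, and 0 of 9 passed (limma, with 0 at an unadjusted p below 0.05). The part of striatal tissue in the effector changes was not tested. Of 10 heat shock and tissue handling genes, 0 passed in either knockout (1 and 0 at an unadjusted p below 0.05), with summed levels of 4575 to 5536, 4461 to 4820 and 4841 to 5099. Between the controls, 8 of these 10 had an unadjusted p below 0.05, and Dnajb1 was lower in the f/+ animals (-0.41, adjusted p = 0.0447). Whether tissue handling or time to freezing moved the effector genes was not tested.

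The genes whose log2 values over the 11 libraries ran most like the mean standardised profile of the 10 effectors were Arl4d (r = 0.932), Junb (0.914), Ier2 (0.912), Megf11 (0.912) and Zfp503 (0.911). These values describe 11 libraries that share group differences and carry no test. Within the 10, the likeness to Arc ran from 0.986 for Dusp1, 0.958 for Sik1 and 0.934 for Dusp6 down to 0.367 for Rgs2.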

How the data were processed

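RNA of 11 cortical punches was sequenced. The authors deposited a single table of normalised signal per gene; its columns sum to 1021767 to 1082562. Per the submitters' processing notes, FastQC, Trim Galore, STAR, RSEM and edgeR were used on GRCm38; no versions, annotation or strand setting were stated there. The deposited values are not counts, so no count test was run. Low values (under 0.5) fell within 0.005 of whole multiples of 1 step per library in 85.9% to 89.2% of cases, from which the depth was estimated.

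The 14330 of 16228 genes that reached 1 in 3 or more libraries were fitted on log2(value + 0.5), which understates the change of low genes, with limma 3.58.1 in R 4.3.3 (a term per group, variance trend, 8 residual degrees of freedom before moderation, two-sided tests, Benjamini-Hochberg adjustment over all genes, threshold 0.05). P-values measure the spread between these samples. The script was tested on simulated data. Members and lists were chosen with earlier results of these data known. From each list the text draws on the 4 genes with the smallest p per comparison; relatives and partners of a member, and Dnajb1, were named after their values were seen. Positions are from GENCODE M21 and promoters from RefSeq. Alternatives covered the pseudocount, filter, scaling, variance model, libraries fitted and a replicate block.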

Additional observations from a re-analysis of the deposited data

Results flagged for a closer look

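Arc in control replicate 2 stood apart from its group: its value of 107.62 lay below the next control at 260.38, and this gap was 0.974 of the whole range of the 4 controls. Of 20 groups of 4 tested in this way (10 genes in controls and in Prkci cKO), this was the 1 that stood out, and chance alone gives about 1 in 20. The cause was not tested.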

How the results depend on the processing

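Of the 10 genes, 3 passed in Prkci cKO, 6 against the f/f controls alone (Dusp6, Nptx2 and Ptgs2 in addition) and 3 to 5 when 1 library was left out. In Prkcz cKO 4 passed, 0 when the variance trend was dropped, 1 when the third group was left out of the fit, 5 against the f/f controls and 0 to 4 when 1 library was left out. All 10 genes had lower estimates in the f/+ than in the f/f controls. Using the f/f controls alone must therefore move every change downward, and genes that pass only there have no separate support for a fall. With the replicate block, 3 passed in Prkci cKO and 2 in Prkcz cKO (Arc and Sik1). Deviations from the group means correlated with r from -0.186 to 0.196 in same-numbered libraries and from -0.229 to 0.272 in differently numbered ones. These values cannot decide whether the numbers pair the animals. Pseudocounts of 0.1 and 1, no filter, both rescalings and array weights changed neither count, and 0 passed between the knockouts under all 20 alternatives. Over all genes, 230 passed in Prkci cKO (346 with array weights, 132 against the f/f controls, 95 to 349 leaving out 1 library). In Prkcz cKO 93 passed (30 with no trend, 29 with 2 groups, 59 against the f/f controls, 13 to 111 leaving out 1 library). Between the knockouts 43 passed (112 with array weights, 73 with the block, 10 to 152 leaving out 1 library). The directions of small changes were not stable. In Prkcz cKO, Nptx2 was -0.11 against the f/f controls and -0.07 to 0.11 leaving out 1 library (negative without control replicate 2), and Rgs2 was -0.04 with array weights, -0.14 against the f/f controls and -0.08 to 0.08 leaving out 1 library (negative without control replicate 1 or 2 or Prkcz cKO replicate 3). Between the knockouts, Arc was -0.01 with Rn45s left out and -0.15 with the replicate block, Sik1 was -0.02 and -0.03 in the same fits, and Plk2 was 0.01 with array weights. Leaving out 1 library moved Arc between -0.21 and 0.31, Dusp1 between -0.24 and 0.02, Sik1 between -0.04 and 0.07, Homer1 between -0.03 and 0.26 and Plk2 between -0.07 and 0.02. Homer1 in Prkci cKO ranged from -0.13 to 0.02, the latter without control replicate 4. The cause of these shifts was not tested. Precision differed by gene: the 95% interval in Prkci cKO reached 0.709 to each side for Arc and 0.130 for Plk2.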
